A study of Mus musculus with 9 samples.

Results

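The genes described here are 10 core genes of the circadian clock (Arntl, Clock, Per1, Per2, Per3, Cry1, Cry2, Nr1d1, Nr1d2 and Dbp), out of 32285 genes in the deposited matrices. They were chosen by symbol and not by any measured value, each symbol had 1 row, and all 10 passed the filter on low counts in every cell class that was tested. RNA was counted in single nuclei of epididymal fat, which lies next to the testes, from male C57BL/6J mice, with 9 libraries of 5 pooled mice each. The study asked what obesity leaves behind in adipose tissue after weight loss. Chow groups were C (18 weeks old), CC (26 weeks) and CCC (39 weeks). The groups on a high-fat diet (HFD) were H (12 weeks of HFD, 18 weeks old), HH (25 weeks of HFD, 31 weeks old), CCH (4 weeks of HFD after chow, 30 weeks old) and HCH (12 weeks of HFD, 8 weeks of chow and 4 more weeks of HFD, 30 weeks old). The groups after weight loss (WL) were HC (12 weeks of HFD, then 8 weeks of chow, 26 weeks old) and HHC (25 weeks of HFD, then 8 weeks of chow, 39 weeks old). The control diet of C is called chow in the labels and low fat in the study's description, and CC, CCC, HC and HHC ended on a standard chow. The labels name no genetic change in any group.

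The clock of mammalian cells is a feedback loop of transcription. The proteins of Arntl (also called Bmal1) and Clock bind together to E-box elements and switch on the Per and Cry genes, whose proteins return to block them, while Nr1d1 and Nr1d2 (the REV-ERB receptors) repress Arntl and Dbp is an output factor that binds D-boxes. Adipose tissue has such a clock, and the RNA of most of these genes swings over the day, with Arntl near the opposite phase of Nr1d1 and Dbp. The mice were held in a cycle of light and dark, but the hour at which each pool was taken is not given in the sources used here. Hour of collection and diet therefore cannot be told apart in any comparison below.

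Each group had 1 library, so a difference between 2 libraries has no error between samples. Intervals of 95% cover counting error only: exact Poisson for the level of a gene (CPM; a UMI marks 1 captured RNA molecule, so CPM is a gene's share of the UMIs of its class) and exact conditional for ratios. Libraries held 22599619 to 66615262 UMIs, 76356 of 91687 barcodes were kept, and 47495 nuclei passed the marker gate of exactly 1 of 12 cell classes. These included 7392 adipocyte-gated (189 to 2521 per library), 15518 progenitor-gated and 14176 macrophage-gated nuclei. The macrophage gate does not split subtypes. The study reports that mainly lipid-associated and non-perivascular macrophages rose in obesity, with a lasting change in the mix of macrophages. The part of this mix in macrophage-gated values was not tested. The median adipocyte-gated nucleus carried 8 to 10 of the 10 adipocyte markers, against 6 to 7 of their own in progenitor-, 4 to 6 in macrophage- and mesothelial-, 5 to 7 in endothelial- and 4 to 5 in T or NK-gated nuclei. The markers of another class reached a median of 3 in adipocyte-gated nuclei and, in CC, 6 in progenitor-, macrophage- and mesothelial-gated and 7 in endothelial- and T or NK-gated nuclei (1 to 5 in the other libraries). A stricter gate kept 6408 of the adipocyte-gated nuclei, but 514 of 1609 mesothelial- and 802 of 1371 T or NK-gated nuclei. Markers of adipocytes also reached 3558 CPM in macrophage-gated nuclei of CC, against 391 to 1247 CPM in the other libraries. In progenitor-gated nuclei they reached 3581 CPM in CC, against 217 to 1227 CPM in the other libraries. Any 2 libraries shared 8 to 55 barcodes. The libraries carry 2 set codes, S075 for C, H, HH, CCH and HCH and S019 for CC, CCC, HC and HHC. These are called sequencing sets here, though the codes do not say which step they mark. All HFD libraries thus come from S075 and both WL libraries from S019.

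The promoters of several clock genes carry the letters that the clock's own factors read, and they are shown here because the members below are grouped by these roles. RefSeq promoters (GRCm38.p6, the 250 bases before a start) were present for 9 of the 10 genes, 13 promoters in all. Per2 had no entry. The canonical E-box CACGTG, a palindrome, was found before the starts of Per1 and Cry1, and stands in 6.02% of all 32851 promoters. The related CACGTT, read on both strands, was found in Cry1, Cry2 and Nr1d1 and stands in 3.85% of promoters. The D-box TTANGTAA, searched on both strands, was found 2 times before Per3 and stands in 2.06% of promoters. TAGGTCA, the core that REV-ERB proteins bind, was found on neither strand of the 13 promoters and stands in 2.23% of all promoters. None of these 4 motifs overlapped another in the windows below, and none was found in these windows for Arntl, Clock, Nr1d2 or Dbp. Capitals mark the motifs as they read 5′ to 3′ on the strand of the gene.
Per1 (E-box, chr11:69098761-69098810, plus strand): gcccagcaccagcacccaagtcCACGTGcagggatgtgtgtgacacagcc
Cry1 (CACGTT as AACGTG, then E-box, chr10:85185087-85185155, minus strand): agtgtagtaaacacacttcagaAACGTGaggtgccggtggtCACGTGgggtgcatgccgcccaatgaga
Cry2 (CACGTT as AACGTG, chr2:92434208-92434257, minus strand): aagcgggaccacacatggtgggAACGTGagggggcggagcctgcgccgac
Nr1d1 (CACGTT as AACGTG, chr11:98775378-98775427, minus strand): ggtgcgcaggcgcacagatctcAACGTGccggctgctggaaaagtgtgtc
Per3 (both D-boxes, chr4:151044794-151044892, minus strand): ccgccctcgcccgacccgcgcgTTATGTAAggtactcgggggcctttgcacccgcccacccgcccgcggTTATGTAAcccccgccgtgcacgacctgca
The window of Per1 lies inside the span of the gene, before an internal start, and none of the windows overlapped an annotated exon. These matches describe letters only.

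Arntl, which with Clock forms the activator pair (chromosome 7: 113207465-113314126, plus strand, GRCm38), was highest in adipocyte-gated nuclei after WL and lowest there after 4 weeks of HFD. Its level in these nuclei was 60.1, 63.7 and 39.9 CPM in C, CC and CCC, then 68.2 in H, 55.6 in HH, 20.7 in CCH and 34.1 in HCH, and 102 in HC and 91.9 in HHC. Both WL libraries lay above all chow libraries, while the HFD libraries spread from below to above the chow range. In progenitor-gated nuclei Arntl stood at 29.8, 41.2 and 18.8 CPM in C, CC and CCC, at 30.3, 12.2, 21.8 and 10.8 in H, HH, CCH and HCH, and at 25.1 and 24.7 in HC and HHC. There HH and HCH were the 2 lowest libraries, and HC and HHC lay inside the chow range. Macrophage-gated nuclei held 34.6 to 67.1 CPM of Arntl in the chow libraries, 39.4 to 74.9 in the HFD libraries and 63.1 to 67.4 after WL, which overlap.

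Clock, the partner of Arntl in the activator pair (chromosome 5: 76209868-76304792, minus strand), overlaps Gm43658 and Ube2n-ps1 on the same strand in GENCODE vM21, so reads in the shared stretches are uncertain. It varied least of the 10 genes between libraries in adipocyte-, progenitor- and macrophage-gated nuclei. Its highest library was 1.38 times its lowest in adipocyte-gated, 1.33 times in progenitor-gated and 1.55 times in macrophage-gated nuclei. The adipocyte-gated level was 217, 231 and 197 CPM in C, CC and CCC, 244, 184, 187 and 178 in H, HH, CCH and HCH, and 227 and 245 in HC and HHC. The chow and HFD ranges overlapped in each of these 3 classes, and so did the chow and WL ranges. In macrophage-gated nuclei CCH stood apart at 282 CPM, with the other HFD libraries at 208 to 211.

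Per1, a fast-responding repressor gene of the loop (chromosome 11: 69095217-69109960, plus strand), was lowest after WL in progenitor- and macrophage-gated nuclei. In adipocyte-gated nuclei it was at 40.4, 64.4 and 57.7 CPM in C, CC and CCC, at 66.9, 63.3, 53.4 and 59.6 in H, HH, CCH and HCH, and at 25.0 and 43.3 in HC and HHC. HC was the lowest of all libraries, and HHC lay between C and the other chow libraries. In progenitor-gated nuclei Per1 was at 59.7, 49.0 and 36.4 CPM in the chow libraries and at 25.9 in HC and 22.4 in HHC, with the HFD libraries at 30.0 to 37.5. Macrophage-gated nuclei had 84.8, 54.2 and 30.1 CPM in C, CC and CCC, 31.9 to 45.1 in the HFD libraries, 22.7 in HC and 21.7 in HHC. In both of these classes the WL libraries lay below every chow library. In macrophage-gated nuclei the counting interval of CCC, at 18.4 to 46.4 CPM from 20 UMIs, took in HC and HHC.

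Per2, which with the Cry proteins forms the repressor complex (chromosome 1: 91415982-91459324, minus strand), was lower in macrophage-gated nuclei on HFD and after WL than on chow. It stood at 76.8, 68.0 and 105 CPM in C, CC and CCC, at 49.4, 56.5, 62.9 and 44.3 in H, HH, CCH and HCH, and at 44.2 and 54.5 in HC and HHC. Neither the HFD nor the WL libraries reached the lowest chow library. The counting interval of that library, CC, at 53.4 to 85.4 CPM from 74 UMIs, took in HH, CCH and HHC. The summed adipocyte markers in these macrophage-gated nuclei split the same way, at 1234 to 3558 CPM on chow, 391 to 1065 on HFD and 706 to 919 after WL. Their part in the Per2 values, and that of a changed mix of macrophage subtypes, was not tested. Per2 itself was at 107 CPM in adipocyte-gated and 55.0 in macrophage-gated nuclei over all libraries. In adipocyte-gated nuclei Per2 was at 117, 107 and 140.3 CPM in C, CC and CCC, at 54.5, 62.3, 119 and 70.5 in H, HH, CCH and HCH, and at 95.2 and 68.8 in HC and HHC. There H, HH and HCH lay below all chow libraries, and CCH lay within their range. In progenitor-gated nuclei the chow range of 79.2 to 139 CPM took in the HFD range of 82.2 to 112.

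Per3, the third Period gene (chromosome 4: 151003652-151044665, minus strand), overlaps Camta1 on the same strand in GENCODE vM21, so reads in the shared stretch are uncertain. In adipocyte-gated nuclei it was at 174, 153 and 264 CPM in C, CC and CCC, at 245, 296, 309 and 291 in H, HH, CCH and HCH, and at 131 and 169 in HC and HHC. HH, CCH and HCH lay above every chow library, H lay inside the chow range, and HC was the lowest library. In progenitor-gated nuclei the values were 138, 108 and 216 CPM in the chow libraries, 224, 266, 179 and 218 in H, HH, CCH and HCH, and 112 and 164 in HC and HHC. All HFD libraries but CCH lay above all chow libraries there, but the counting interval of CCC, at 194 to 240 CPM, took in H and HCH. Macrophage-gated nuclei gave 71.9 to 97.7 CPM on chow, 62.6 to 86.7 on HFD and 44.6 to 52.3 after WL, so that only the WL range lay apart from chow. The adipocyte markers in these macrophage-gated nuclei also lay apart, at 1234 to 3558 CPM on chow and 706 to 919 after WL. Per3 was at 207 CPM in adipocyte-gated and 68.9 in macrophage-gated nuclei over all libraries, and the part of these markers in its values was not tested.

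**Figure D1:**
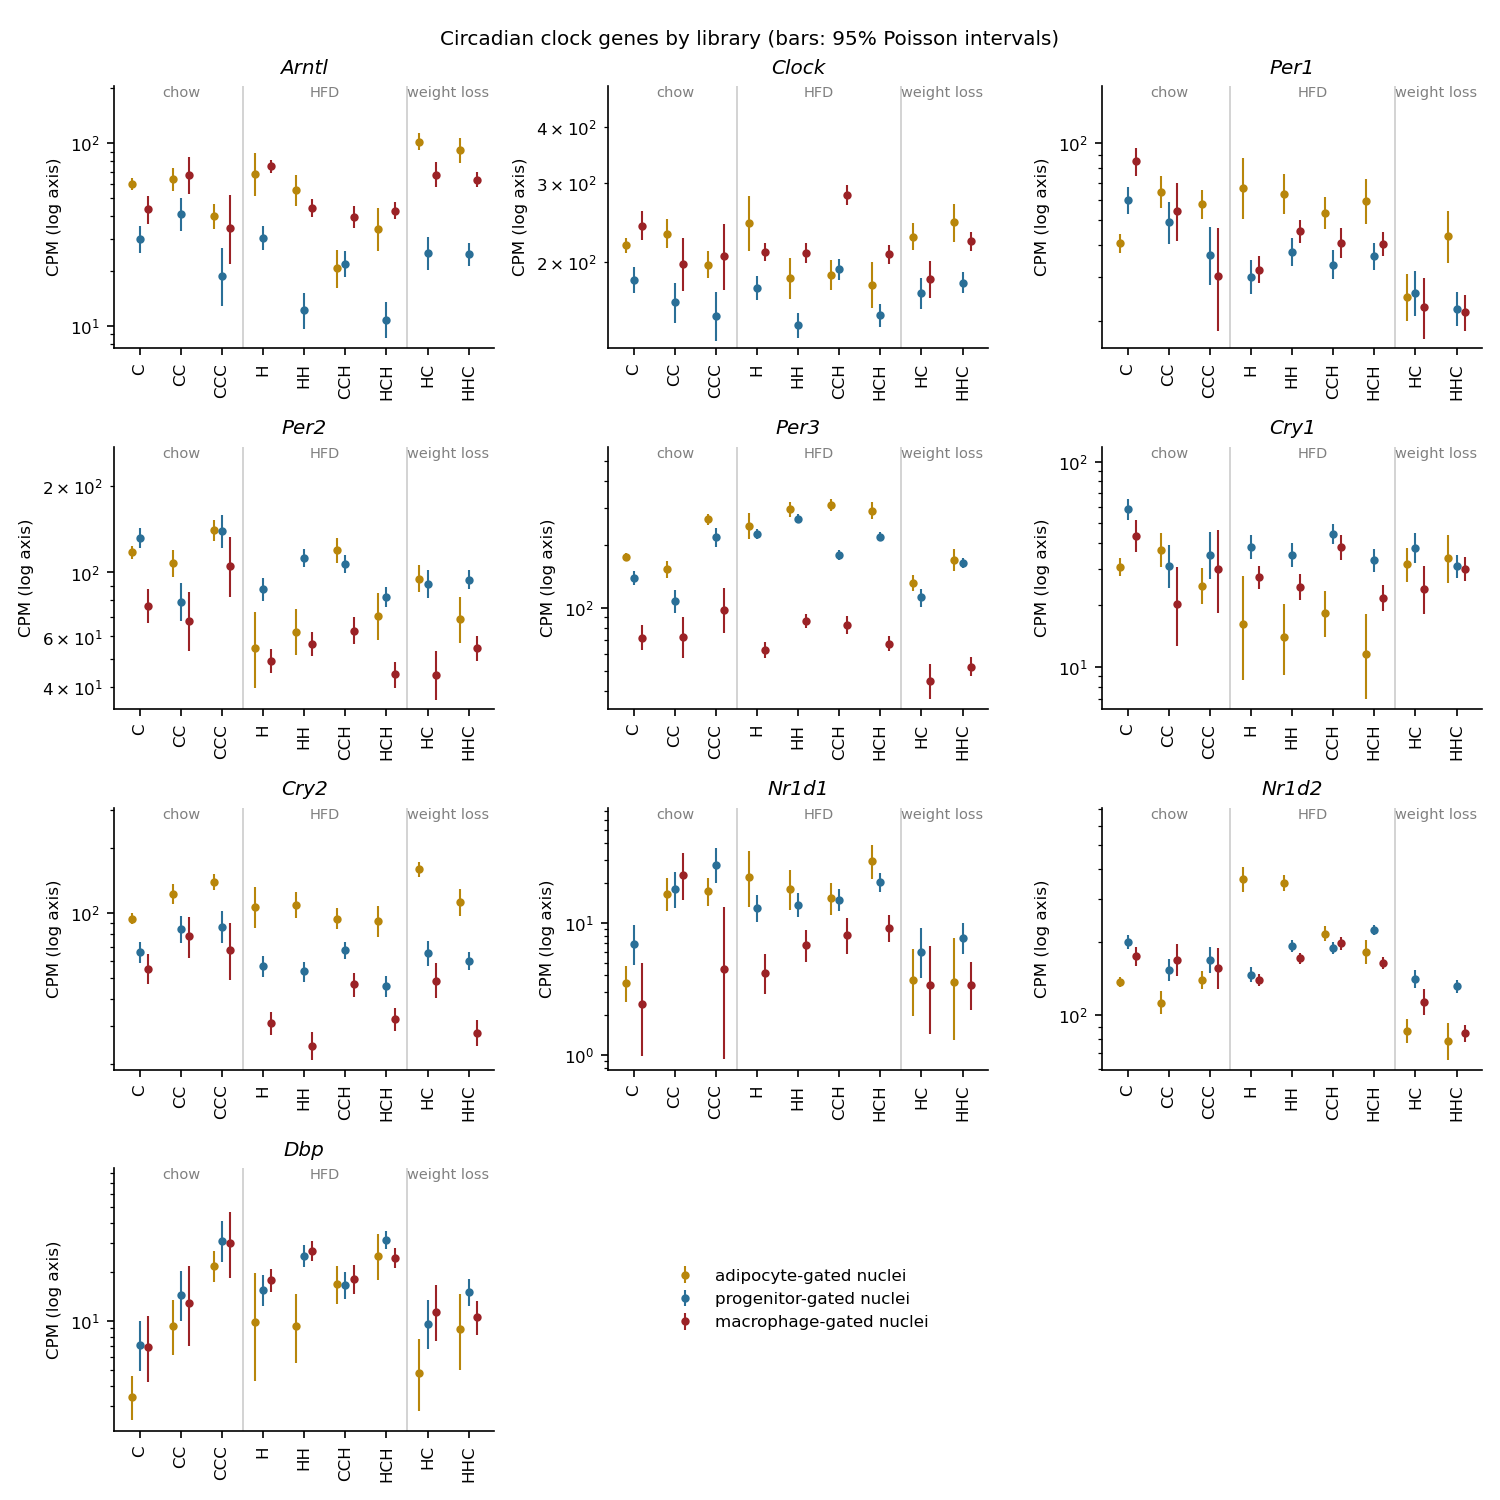
Level of each clock gene in the 9 libraries. The x axis lists the libraries by diet state (chow, HFD, after weight loss), the y axis gives CPM on a log axis, points are adipocyte-, progenitor- and macrophage-gated nuclei, and bars are 95% Poisson intervals of the counts. Nr1d2 of adipocyte-gated nuclei stands at 362 CPM in H and 349 in HH, above the 113 to 139.8 CPM of the chow libraries.

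Cry1, a cryptochrome that closes the loop (chromosome 10: 85131700-85185064, minus strand), separated the HFD from the chow libraries in adipocyte-gated nuclei. It was at 30.6, 37.2 and 24.8 CPM in C, CC and CCC and at 16.1, 13.9, 18.3 and 11.6 in H, HH, CCH and HCH. After WL it was at 31.6 CPM in HC and 33.8 in HHC, inside the chow range. The counts behind the HFD values were small, with 13 UMIs in H, 27 in HH, 62 in CCH and 19 in HCH. In progenitor-gated nuclei the chow libraries ranged from 31.1 to 58.7 CPM and the HFD libraries from 33.1 to 44.4, and in macrophage-gated nuclei from 20.2 to 43.4 and from 21.7 to 38.3, so both overlapped.

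Cry2, the second cryptochrome (chromosome 2: 92403646-92434043, minus strand), was lower on HFD in macrophage-gated nuclei. It was at 55.3, 78.1 and 67.6 CPM in C, CC and CCC, at 30.9, 24.4, 46.9 and 32.5 in H, HH, CCH and HCH, and at 48.9 and 28.0 in HC and HHC. No HFD or WL library reached the lowest chow value. The counting interval of that value, 47.0 to 64.6 CPM in C, took in HC and overlapped that of CCH (41.2 to 53.1). The adipocyte markers in these nuclei separated the chow libraries from the others in the same way, as given for Per2, Cry2 was at 112 CPM in adipocyte-gated and 35.9 in macrophage-gated nuclei over all libraries, and the part of these markers in the result was not tested. In progenitor-gated nuclei Cry2 was at 66.2, 84.5 and 86.9 CPM on chow, at 57.0, 53.8, 67.6 and 45.9 in H, HH, CCH and HCH, and at 65.3 and 60.1 in HC and HHC. CCH alone kept the HFD and chow ranges from separating there, and adipocyte markers in progenitor-gated nuclei were at 825 to 3581 CPM on chow and 217 to 596 on HFD. In adipocyte-gated nuclei the HFD libraries held 91.8 to 109 CPM, the chow libraries 94.4 to 139, HC 159.7 and HHC 113.

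Nr1d1, which encodes REV-ERB alpha (chromosome 11: 98767932-98775333, minus strand) and overlaps Thra on the other strand, was rare, with 334 UMIs in all adipocyte-gated nuclei. Its adipocyte-gated level was 3.51, 16.6 and 17.3 CPM in C, CC and CCC, 22.3, 18.0, 15.3 and 29.2 in H, HH, CCH and HCH, and 3.70 in HC and 3.56 in HHC. C, HC and HHC were the lowest, at 3.51 to 3.70 CPM, and the other libraries lay at 15.3 CPM or more. In progenitor-gated nuclei the same 3 libraries were again the lowest, at 6.92 CPM in C, 6.06 in HC and 7.69 in HHC, against 12.9 to 27.3 in the others. Macrophage-gated nuclei held 23.0 CPM in CC from 25 UMIs and 2.43 to 9.15 CPM elsewhere. Adipocyte markers were also highest in these nuclei of CC (3558 CPM), and their part in the Nr1d1 value was not tested.

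Nr1d2, which encodes REV-ERB beta (chromosome 14: 18204054-18239127, minus strand), separated the HFD from the chow libraries in adipocyte-gated nuclei, as Cry1 did. It was at 138, 113 and 139.8 CPM in C, CC and CCC, at 362, 349, 217 and 182 in H, HH, CCH and HCH, and at 86.1 and 78.2 in HC and HHC. All HFD libraries lay above and both WL libraries below the chow range, and H and HH stood above CCH and HCH. In progenitor-gated nuclei Nr1d2 was at 199.9, 154 and 169 CPM on chow, at 147, 193, 189 and 223 in H, HH, CCH and HCH, and at 141 and 131 in HC and HHC. In macrophage-gated nuclei the chow libraries ranged from 156 to 175 CPM, the HFD libraries from 139.5 to 198, and HC and HHC were at 114 and 84.5. The WL libraries were thus below chow in these classes as well, whereas the HFD ranges took in the chow ranges. In progenitor-gated nuclei the counting interval of CC, at 138 to 171 CPM, took in HC.

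Dbp, the D-box binding output gene of the clock (chromosome 7: 45705088-45710203, plus strand), overlaps Sphk2 on the other strand and was also rare, with 312 UMIs in adipocyte-gated nuclei. It was at 3.42, 9.29 and 21.6 CPM in C, CC and CCC, at 9.92, 9.27, 16.8 and 24.9 in H, HH, CCH and HCH, and at 4.83 and 8.89 in HC and HHC. Chow libraries spanned nearly the whole range. Progenitor-gated nuclei showed 7.12, 14.4 and 31.0 CPM on chow, 15.4, 25.0, 16.6 and 31.3 in H, HH, CCH and HCH, and 9.64 and 14.99 in HC and HHC. Macrophage-gated nuclei had 6.95, 12.9 and 30.1 CPM on chow, 17.7, 26.9, 18.0 and 24.4 on HFD in the same order, and 11.4 and 10.5 after WL. C was the lowest library in all 3 classes.

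In endothelial-gated nuclei Nr1d1 was at 0.942 CPM in C, from 2 UMIs, against 28.5 and 33.5 CPM in CC and CCC, and Dbp was at 5.65, 25.4 and 45.3 CPM in these libraries, so that C was again below CC and CCC. Per1 was at 18.5 CPM in HC and 18.9 in HHC there, against 45.2 to 70.9 on chow and 29.3 to 46.8 on HFD. In mesothelial-gated nuclei Per1 was at 39.9 CPM in HC and 13.6 in HHC from 3 UMIs, against 56.6 to 102 in the other libraries. Over all libraries, T or NK cell-gated nuclei held Arntl at 108 CPM (interval 95.7 to 122, 263 UMIs), above 58.6 CPM (56.0 to 61.3) in adipocyte-gated and 22.1 CPM (20.8 to 23.5) in progenitor-gated nuclei. Per2 and Per3 were at 18.96 (13.9 to 25.3) and 38.7 CPM (31.3 to 47.4) in the T or NK cell-gated nuclei, against 107 (104 to 111) and 207 CPM (203 to 213) in adipocyte-gated nuclei. Libraries contribute unequally to these pooled values.

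Setting H against C, the study's comparison for the shorter HFD, 4 of 10 clock genes were at least 2-fold apart in adipocyte-gated nuclei, beside 34.9% of 13622 genes with at least 20 UMIs over both libraries. Nr1d1 was 6.37-fold (log2 2.67, interval 1.79 to 3.49), Dbp 2.90-fold (log2 1.53, 0.23 to 2.64) and Nr1d2 2.63-fold higher (log2 1.40, 1.21 to 1.58), and Per2 was 2.15-fold lower (log2 -1.11, -1.57 to -0.67). In progenitor-gated nuclei 1 clock gene passed this limit, beside 28.9% of all genes: Dbp, 2.17-fold higher (log2 1.11, 0.53 to 1.73). In macrophage-gated nuclei 2 passed, beside 38.0%: Dbp was 2.55-fold higher (log2 1.35, 0.67 to 2.10) and Per1 2.66-fold lower (log2 -1.41, -1.67 to -1.15). Dbp was higher in H in all 3 classes, and the Nr1d2 ratio was below 1 in the other 2 (log2 -0.44 in progenitor- and -0.33 in macrophage-gated nuclei). The shares of the clock genes lay near or under the background in each class.

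HH against CC, which differ in age and sequencing set, gave 2 clock genes at least 2-fold apart in adipocyte-gated nuclei, beside 36.2% of all genes. Nr1d2 was 3.10-fold higher (log2 1.63, 1.44 to 1.82) and Cry1 2.67-fold lower (log2 -1.42, -2.08 to -0.80). In progenitor-gated nuclei Arntl was 3.37-fold lower (log2 -1.75, -2.21 to -1.31) and Per3 2.47-fold higher (log2 1.31, 1.11 to 1.51), and 34.7% of all genes passed. Adipocyte markers in these nuclei were at 340 CPM in HH and 3581 in CC, and their part in the Arntl ratio was not tested. In macrophage-gated nuclei 3 passed, beside 40.9% of all genes: Cry2 was 3.21-fold lower (log2 -1.68), Nr1d1 3.40-fold lower (log2 -1.77) and Dbp 2.09-fold higher (log2 1.06). With C of the same sequencing set as the control, HH had Nr1d2 2.54-fold higher and Cry1 2.20-fold lower in adipocyte-gated nuclei, but Nr1d1 was 5.14-fold higher there and 2.78-fold higher in macrophage-gated nuclei. The direction for Nr1d1 in macrophage-gated nuclei thus turned with the choice of control, while those for Nr1d2, Cry1, Cry2 and Dbp, in the classes named here, did not.

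In the H with C, HH with CC and HCH with CCH comparisons the median of all genes compared stood above 0, at log2 0.11 to 0.32, and TMM factors, a scaling that centres the bulk of the genes, lower these ratios. With TMM factors, Cry1 of adipocyte-gated nuclei also passed 2-fold in H with C (log2 -1.27), as did Per1 of progenitor-gated (log2 -1.27) and Cry2 of macrophage-gated nuclei (log2 -1.03), and Per2 of adipocyte-gated nuclei did in HH with CC (log2 -1.06), while Dbp of progenitor-gated nuclei in H with C and Dbp of macrophage-gated nuclei in HH with CC did not. Small ratios turned sign under this scaling, among them Arntl, Clock and Cry2 in H with C (from log2 0.17 to 0.18 down to -0.16 to -0.18) and Nr1d1 in HH with CC (from log2 0.12 to -0.15), all in adipocyte-gated nuclei. The split of higher to lower clock genes past 2-fold in H with C went from 3 to 1 to 3 to 2 in adipocyte-gated, from 1 to 0 to 0 to 1 in progenitor-gated and from 1 to 1 to 1 to 2 in macrophage-gated nuclei, beside 33.4%, 26.6% and 36.1% of all genes past 2-fold with TMM factors. In HH with CC it went from 1 to 1 to 1 to 2 in adipocyte-gated and from 1 to 2 to 0 to 2 in macrophage-gated nuclei, beside 35.8% and 38.8%.

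After 8 weeks of WL, HC set against CC of the same age and sequencing set differed at least 2-fold in 2 clock genes of adipocyte-gated nuclei, beside 12.4% of all genes. Nr1d1 was 4.49-fold lower (log2 -2.17, -3.17 to -1.26) and Per1 2.57-fold lower (log2 -1.36, -1.74 to -0.99). In progenitor-gated nuclei Nr1d1 was 2.96-fold lower (log2 -1.57, -2.38 to -0.79), 1 gene of 10 beside 15.4% of all genes. In macrophage-gated nuclei Nr1d1 was 6.82-fold (log2 -2.77, -4.13 to -1.58) and Per1 2.38-fold lower (log2 -1.25, -1.81 to -0.70), 2 of 10 beside 21.7% of all genes. Nr1d1 was lower in HC in all 5 classes with enough nuclei, with an interval below 0 in 5. Per1 and Nr1d2 were each lower in 5 classes with an interval below 0 in 4. The mesothelial-gated value of Nr1d1 rested on 2 UMIs in HC and 14 in CC. The classes share the same 2 libraries and free RNA was not subtracted, so they do not count as separate evidence. The share of all genes with 1 sign in 5 classes is not given here. Arntl was 1.602-fold higher in adipocyte-gated nuclei (log2 0.68, 0.42 to 0.94), with log2 ratios of -0.72 and 0.01 in progenitor- and macrophage-gated nuclei. Without the upper limit on genes and UMIs per nucleus, the count was 2 in progenitor-gated nuclei, beside 16.5% of all genes, and 4 in macrophage-gated nuclei, beside 28.8%. The stricter gate also gave 2 in progenitor-gated nuclei, beside 15% of all genes (1803 of 12057).

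HHC against CCC, also of 1 age and 1 sequencing set, had 4 of 10 clock genes at least 2-fold apart in adipocyte-gated nuclei, beside 16.5% of all genes. Arntl was 2.30-fold higher (log2 1.20, 0.87 to 1.53), and Nr1d1 was 4.87-fold (log2 -2.28, -3.78 to -1.09), Dbp 2.43-fold (log2 -1.28, -2.18 to -0.48) and Per2 2.04-fold lower (log2 -1.03, -1.33 to -0.74). In progenitor-gated nuclei Nr1d1 was 3.55-fold lower (log2 -1.83, -2.42 to -1.23) and Dbp 2.07-fold lower (log2 -1.05, -1.54 to -0.54), 2 of 10 beside 15.8%. In macrophage-gated nuclei Dbp was 2.86-fold lower (log2 -1.52, -2.24 to -0.72) and Cry2 2.42-fold lower (log2 -1.27, -1.75 to -0.77), 2 of 10 beside 21.2%. These counts moved with the nuclei taken in. Without the upper limit on genes and UMIs there were 2 in adipocyte-gated nuclei, beside 16.6% of all genes, and 4 in macrophage-gated nuclei, beside 24.5%, and the stricter gate gave 1 in progenitor-gated nuclei, beside 16.1%. Per2 was lower in HHC in all 5 classes, with an interval below 0 in 5, and Per1, Per3 and Nr1d2 were lower in 5 classes with an interval below 0 in 4. Cry2 and Nr1d1 were lower in 5 with an interval below 0 in 3, and Clock was higher in 5 with an interval above 0 in 2. These classes, too, share the same 2 libraries, and no share of all genes stands beside these counts.

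**Figure D2:**
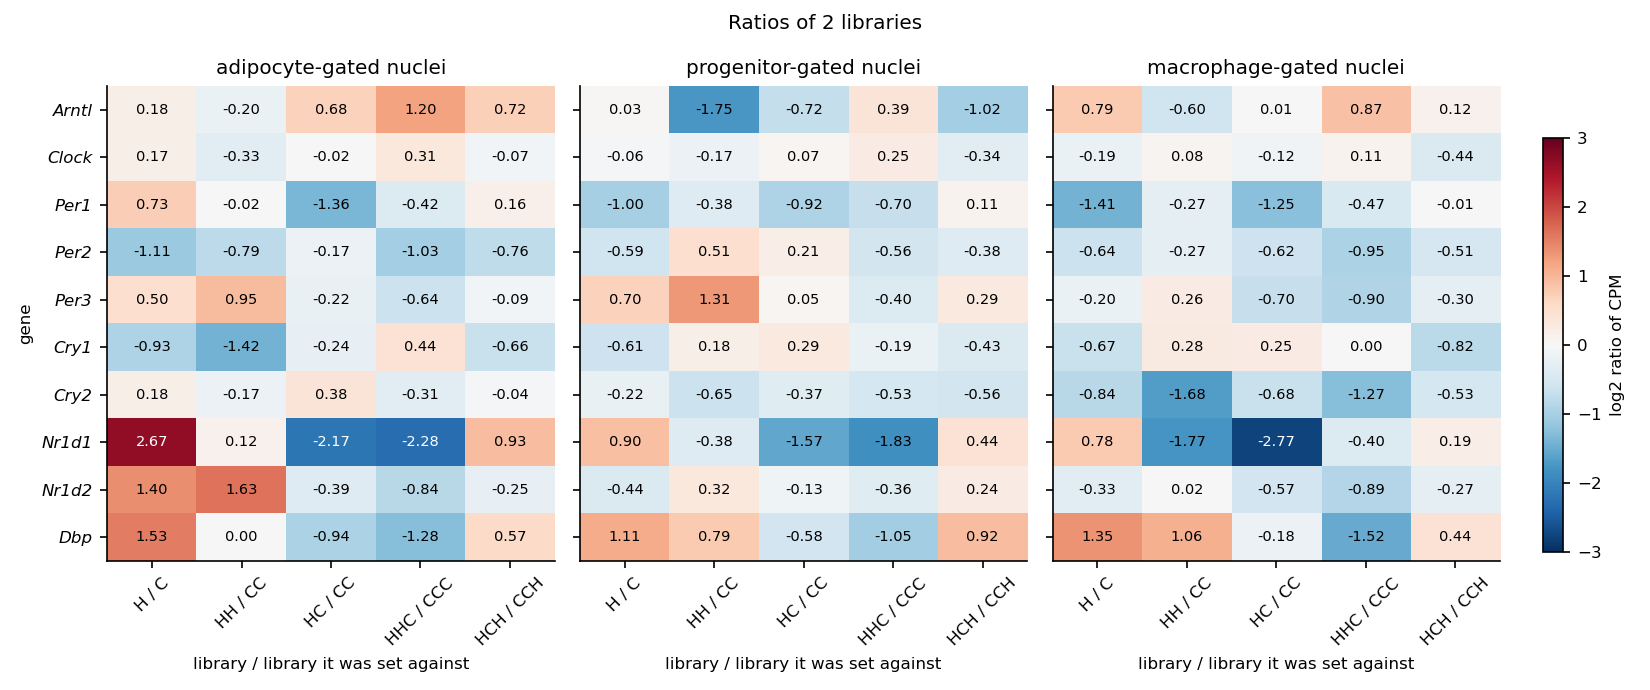
Log2 ratios of the 10 clock genes between pairs of libraries. Rows are genes, columns are the 5 comparisons (library over the library it was set against), panels are cell classes, and colour and printed value give the log2 ratio of CPM, red for higher. Nr1d1 runs from 2.67 in H over C to -2.28 in HHC over CCC in adipocyte-gated nuclei.

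HCH against CCH compares renewed HFD after WL with a first HFD of the same 4 weeks at the same age, within 1 sequencing set. No clock gene was 2-fold apart in adipocyte-gated nuclei, beside 18.5% of all genes, and none in macrophage-gated nuclei, beside 19.3%. In progenitor-gated nuclei Arntl was 2.02-fold lower (log2 -1.02, -1.43 to -0.62), 1 of 10 beside 15.2%, and none was without the upper limit on genes and UMIs, beside 16.5%. Over all 5 classes, smaller ones included, Per2 was lower in HCH in 5, with log2 ratios of -1.001 to -0.28 and an interval below 0 in 4. Clock, Cry1 and Cry2 were also lower in 5, with an interval below 0 in 3, 2 and 2. Nr1d1 was higher in 5, with an interval above 0 in 3. The classes share the same 2 libraries, and the share of all genes with 1 sign in 5 classes is not given here. Dbp was higher in HCH in 5 of 5, with log2 ratios of 0.44 to 1.28 and an interval above 0 in 4, the highest in mesothelial-gated nuclei from 29 against 10 UMIs. Arntl went the other way in adipocyte-gated nuclei, where it was at 34.1 CPM in HCH and 20.7 in CCH (log2 0.72).

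To ask which differences exceed the spread between libraries, libraries of 1 diet state were taken as replicates, although they differ in age, length of diet and sequencing set. In edgeR's quasi-likelihood test with Benjamini-Hochberg adjustment, no clock gene passed an adjusted p of 0.05 between the 4 HFD and 3 chow libraries, in a fit that called 0.0% of 14137 genes in adipocyte-gated, 0.0% of 15764 in progenitor-gated and 0.0% of 15023 in macrophage-gated nuclei. At an unadjusted p under 0.05 there were 3 clock genes in adipocyte-gated, 2 in progenitor-gated and 2 in macrophage-gated nuclei, beside 23.6%, 24.6% and 29.7% of all genes tested, so that the clock genes lay near or under the background. The smallest p belonged to Cry1 (log2 fold -1.19 ± 0.28 SE, adjusted p = 0.106) and Nr1d2 (0.92 ± 0.26, adjusted p = 0.112) in adipocyte-gated and Cry2 (-1.05 ± 0.32, adjusted p = 0.0857) and Per2 (-0.70 ± 0.21, adjusted p = 0.0846) in macrophage-gated nuclei, by the same edgeR test. DESeq2 called 2 clock genes in adipocyte-gated nuclei (Cry1, log2 fold -1.19, and Nr1d2, 0.92), beside 7.94% of all genes, none in progenitor-gated nuclei, beside 9.31%, and 2 in macrophage-gated nuclei (Per2, -0.70, and Cry2, -1.05), beside 13.9%. These 4 are the genes whose edgeR values are given above.

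The absence of calls by edgeR depended on CCH, a library with 4 weeks of HFD, and on the filter on low counts. Without that filter edgeR called Cry1 in adipocyte-gated nuclei (log2 fold -1.20, adjusted p = 0.0151), beside 6.95% of all genes. Without CCH, edgeR called 3 clock genes in adipocyte-gated nuclei, beside 13.0% of all genes: Cry1 (log2 fold -1.39, adjusted p = 0.0206), Per2 (-1.15, adjusted p = 0.0216) and Nr1d2 (0.99, adjusted p = 0.0432). In progenitor-gated nuclei it then called Cry2 (-0.77, adjusted p = 0.0255), beside 14.0% of all genes, and in macrophage-gated nuclei Cry2 (-1.31, adjusted p = 0.0116) and Per2 (-0.85, adjusted p = 0.0135), beside 26.5%. The share of clock genes called was thus above the background in adipocyte-gated nuclei and below it in the other 2 classes, over only 10 genes.

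With the sequencing set as a term, where C alone ties the HFD libraries to a chow library of their set, edgeR called no clock gene for HFD or WL in any of the 3 classes, beside 0.0% of 15268, 16704 and 15926 genes. At an unadjusted p under 0.05 HFD had 3, 4 and 2 clock genes in adipocyte-, progenitor- and macrophage-gated nuclei, beside 13.0%, 10.9% and 11.2% of all genes. WL had 2, 2 and 5, beside 5.86%, 9.0% and 11.9%. These shares of the clock genes lay above the background, over only 10 genes, and none passed after adjustment. The HFD log2 fold in adipocyte-gated nuclei was then -1.27 for Cry1 (adjusted p = 0.325 by edgeR) and 0.73 for Nr1d2 (adjusted p = 0.417). Those of Nr1d1 and Dbp went from 0.67 to 2.30 and from 0.40 to 1.92. The Nr1d1 fold for HFD turned sign in progenitor-gated nuclei (from -0.20 to 1.004) and in macrophage-gated nuclei (from -0.53 to 1.42).

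The HFD and chow libraries did not overlap in 2 clock genes of adipocyte-gated nuclei (Cry1 lower, Nr1d2 higher), beside 14.8% of all genes tested. None of the 10 separated in progenitor-gated nuclei, beside 17.4%, and 2 separated in macrophage-gated nuclei (Per2 and Cry2, both lower), beside 21.5%. Counts of this kind, here and for WL below, compare CPM alone and leave counting error aside. In adipocyte-gated nuclei the count was 4 without H, beside 17.1% of all genes, and 4 without CCH, beside 35.8%. In progenitor-gated nuclei it was 3 without CCC, beside 29.9%, 2 without CCH, beside 36.3%, and 1 each without C, beside 36.5%, without CC, beside 22.3%, and without HH, beside 2994 of 15764 genes. In macrophage-gated nuclei it was 4 without CCC, beside 35.9%. The share over all genes was above that with every library in each of these cases. Within S075, where C is the only chow library, the mean log2 CPM of the 4 HFD libraries differed from C by -1.02 for Cry1 and 0.95 for Nr1d2 in adipocyte-gated and by -0.76 for Cry2 and -0.54 for Per2 in macrophage-gated nuclei. The same contrast gave 2.56 for Nr1d1 and 2.06 for Dbp in adipocyte-gated nuclei, against 1.05 and 0.69 with all chow libraries.

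Between the 2 WL and 3 chow libraries, edgeR called no clock gene at an adjusted p of 0.05, nor any other gene (0.0% in adipocyte-gated, 0.0% in progenitor-gated and 0.0% in macrophage-gated nuclei). Unadjusted p was under 0.05 for 2, 2 and 4 clock genes in the same order, beside 8.07%, 11.1% and 15.1% of all genes tested. These shares of the clock genes lay above the background, over only 10 genes, and none passed after adjustment by edgeR. Per1 had log2 folds of -0.70 ± 0.27 SE, -1.09 ± 0.28 and -1.41 ± 0.40 in adipocyte-, progenitor- and macrophage-gated nuclei, with adjusted p of 0.539, 0.243 and 0.171 by edgeR. Nr1d1 had log2 folds of -1.68 ± 0.64, -1.33 ± 0.49 and -1.53 ± 0.86 (adjusted p of 0.539, 0.364 and 0.436 by edgeR). DESeq2 called Per1 in progenitor-gated nuclei (-1.07), beside 1.38% of all genes, and in macrophage-gated nuclei (-1.42), beside 3.91%, and no clock gene in adipocyte-gated nuclei, beside 0.531%.

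WL and chow libraries did not overlap in 3 clock genes of adipocyte-gated nuclei (Arntl higher, Per2 and Nr1d2 lower), beside 21.8% of all genes tested. In progenitor-gated nuclei 3 separated (Per1, Cry2 and Nr1d2, all lower), beside 24.2%, and in macrophage-gated nuclei 5 (Per1, Per2, Per3, Cry2 and Nr1d2, all lower), beside 31.5%. The count was 6 in adipocyte-gated nuclei without C, CC or HHC, beside 31.5%, 31.2% and 51.7% of all genes, and 5 in progenitor-gated nuclei without C, beside 38.6%. In macrophage-gated nuclei it was 7 without C, CC or HHC, beside 44.0%, 43.4% and 50.8%. Within S019, where 2 WL libraries meet 2 chow libraries, mean log2 CPM differed by -2.15, -1.69 and -1.65 for Nr1d1 and by -0.88, -0.81 and -0.88 for Per1 in adipocyte-, progenitor- and macrophage-gated nuclei. For Arntl the difference was 0.94 in adipocyte-gated, -0.17 in progenitor-gated and 0.42 in macrophage-gated nuclei. In these classes Nr1d1 was higher in CC and CCC than in HC and HHC within that set. C, the chow library of the other set, lay near HC and HHC there. In macrophage-gated nuclei CCC rested on 3 UMIs of Nr1d1 (4.51 CPM, interval 0.93 to 13.2). That interval took in HC (3.37 CPM) and HHC (3.41 CPM), and CC stood at 23.0 CPM.

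**Figure D3:**
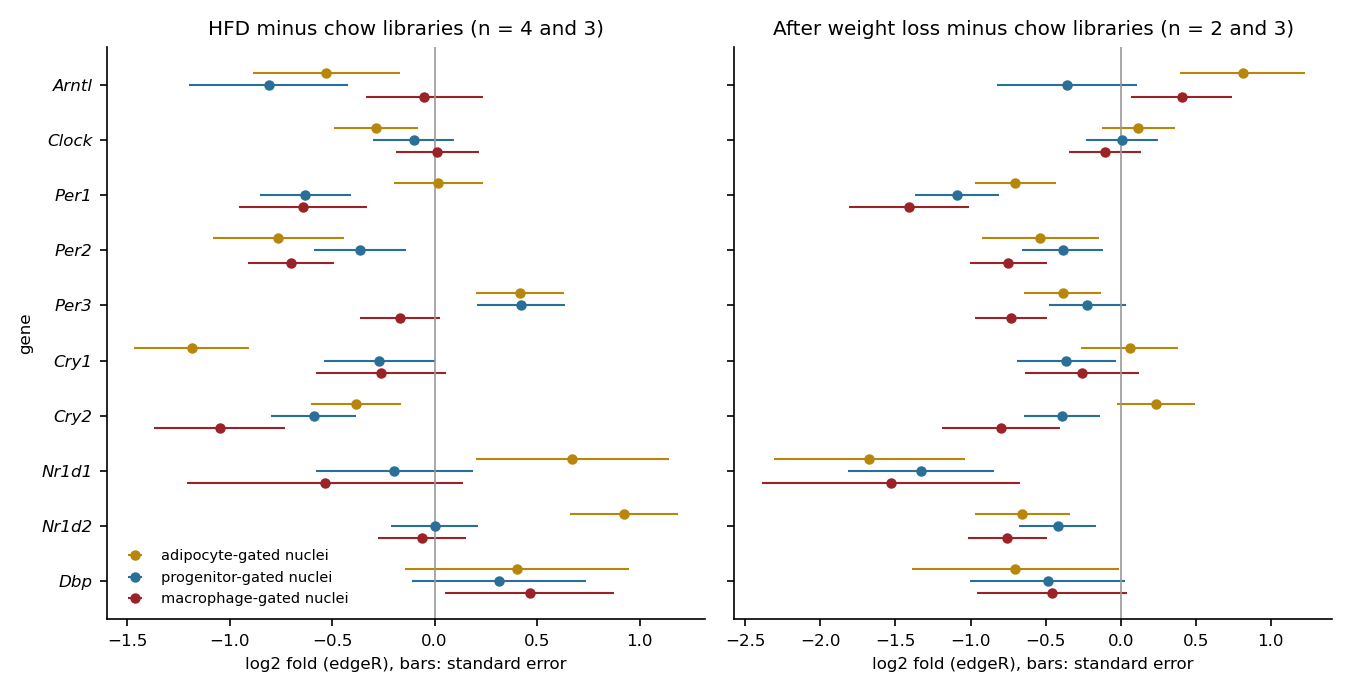
Log2 folds of the 10 clock genes in the edgeR fits. The y axis lists the genes, the x axis gives the log2 fold of HFD over chow libraries (left, 4 against 3) and of WL over chow libraries (right, 2 against 3), colours are cell classes and bars are standard errors. Cry1 at -1.19 and Nr1d2 at 0.92 lie farthest from 0 on the left among adipocyte-gated values, and Per1 is below 0 in all 3 classes on the right.

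Whether the HFD effect differs between classes was tested in 2 edgeR fits with the library as a block, chosen after the data were seen. Against progenitor-gated nuclei 0.0% of 15828 genes passed an adjusted p of 0.05, and against macrophage-gated nuclei 0.0129% of 15475, 2 genes and none of them a clock gene. Nr1d2 differed between adipocyte- and progenitor-gated nuclei by log2 0.85 ± 0.31 SE (edgeR adjusted p = 0.252) and between adipocyte- and macrophage-gated nuclei by 0.94 ± 0.29 (edgeR adjusted p = 0.164). Cry1 differed by -0.995 ± 0.28 and -0.98 ± 0.32 (edgeR adjusted p of 0.142 and 0.190). The HFD patterns of Nr1d2 and Cry1 are therefore not shown to be particular to adipocyte-gated nuclei.

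Across the 9 libraries, Arntl was set against the other 9 clock genes, using log2 CPM averaged over adipocyte-, progenitor-, macrophage-, mesothelial- and endothelial-gated nuclei. With this average over classes Nr1d2 had r = -0.71 (exact permutation p = 0.0252, adjusted 0.206) and rho = -0.77 (exact permutation p = 0.0214, adjusted 0.177). Per3 had r = -0.68 (exact permutation p = 0.0457, adjusted 0.206) and rho = -0.68 (p = 0.0503, adjusted 0.177). None of the 9 pairs passed after adjustment. Positive relations were led by Cry2 with r = 0.64 (exact permutation p = 0.0694, adjusted 0.208) and Clock with r = 0.53 (exact permutation p = 0.141, adjusted 0.256). Dbp had r = -0.54 (exact permutation p = 0.142, adjusted 0.256, with rho = -0.53, p = 0.148, adjusted 0.266) and Nr1d1 r = -0.28 (exact permutation p = 0.458, adjusted 0.589, with rho = -0.18, p = 0.644, adjusted 0.810). Without CC and HCH, the 2 libraries farthest from the median of Arntl, r was -0.84 for Nr1d2, -0.59 for Per3, -0.53 for Dbp and -0.56 for Nr1d1. It was then 0.42 for Cry2 and 0.37 for Clock. In adipocyte-gated nuclei alone the order was another, with r = -0.79 for Per3, 0.78 for Clock, -0.68 for Dbp, -0.59 for Nr1d1 and -0.42 for Nr1d2, so size and rank of these relations depend on the classes averaged. The 4 HFD libraries held the 4 lowest Arntl means (4.21 to 4.64, against 4.92 to 5.48), so these pairs also follow diet and sequencing set. The mean of H, the highest of these, rested in part on 0 Arntl UMIs in mesothelial-gated nuclei, where the offset set the level. H lay above every chow library in adipocyte- and macrophage-gated nuclei (68.2 and 74.9 CPM). It lay inside the chow range in progenitor-gated (30.3 CPM) and below it in endothelial-gated nuclei (13.8 CPM). Each set and each diet state holds fewer than the 6 libraries needed for a correlation of its own.

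**Figure D4:**
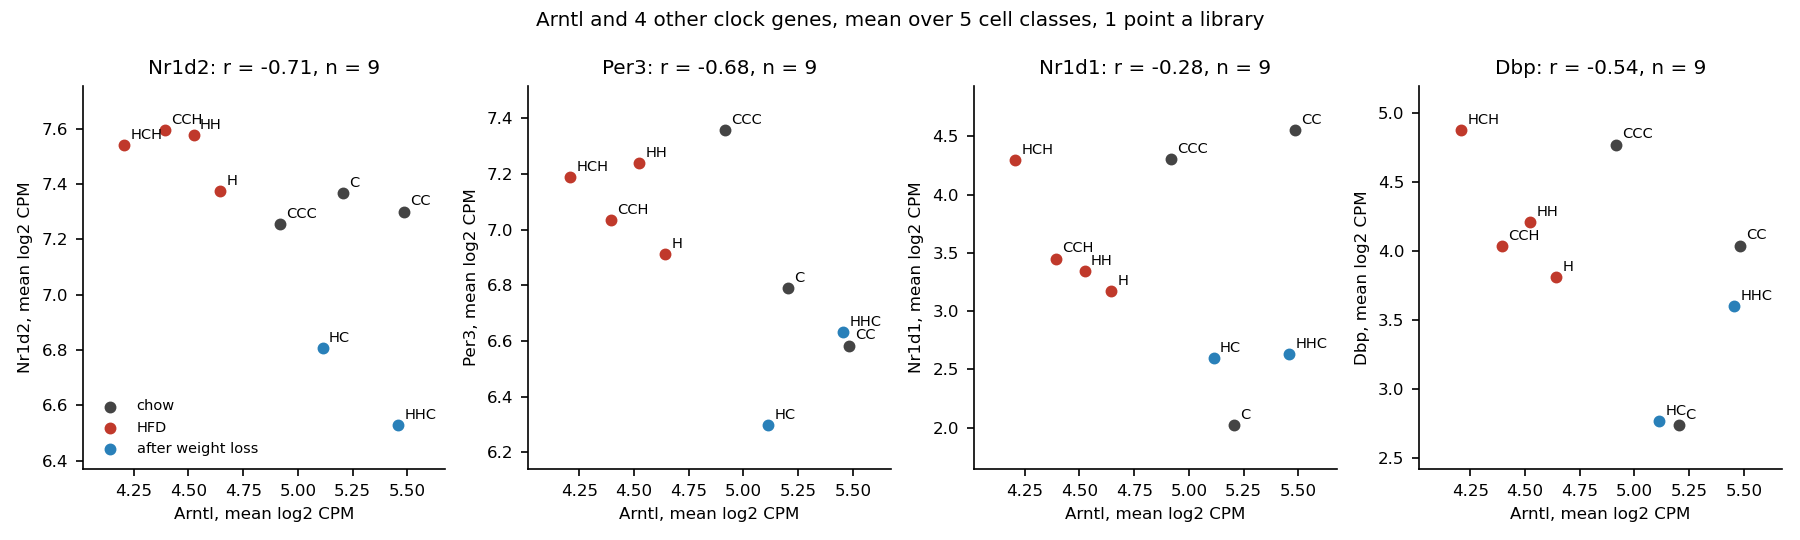
Arntl against 4 other clock genes across libraries. Both axes give log2 CPM averaged over 5 cell classes, each of the 9 points is a library, colours are diet states, and the panel titles give Pearson's r. The HFD libraries sit at the low end of Arntl (4.21 to 4.64), where the mean of H includes 0 Arntl UMIs in mesothelial-gated nuclei. CC, CCC and HCH lie high for Nr1d1 at 4.55, 4.31 and 4.30.

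As a description over the same 9 libraries, which share these cell classes and differ in depth, Nr1d1 and Dbp went together (r = 0.86), as did Per1 and Nr1d2 (r = 0.88) and Clock and Cry1 (r = 0.86), while Cry1 and Dbp were opposed (r = -0.76). These are the 3 highest and the lowest r of 45 pairs of clock genes, and they were not tested. Diet and sequencing set are not separated in them, and Nr1d1 rested on 2 UMIs in endothelial-gated nuclei of C. Mesothelial-gated nuclei, which weigh as much as the other classes, held 0 UMIs of Nr1d1 in H and 1 in HHC. They held 0 UMIs of Dbp in HC and 1 in H, and 1 of Cry1 in CCC. Among 11628 genes with enough UMIs outside the clock lists, the patterns most like that of Dbp were those of Slc5a7 (r = 0.96), Bok (0.95), Arvcf (0.95), Hspb1 (0.93) and Cyp2j6 (0.92). Those most like Arntl were Nt5c3b (r = 0.94), Znfx1 (0.93), Hdgfl2 (0.92), Uck2 (0.92) and Taco1 (0.92). With so many genes and 9 points, high values of r are common.

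Around the core loop stand the second activator Npas2, the receptor Rora, an activator of Arntl, the D-box factors Tef and Hlf with their opponent Nfil3, the E-box repressors Bhlhe40, Bhlhe41 and Ciart, and the kinases, ligase parts and protease that set how long the repressors last. Of 18 such genes, 16 were tested in adipocyte-gated, 18 in progenitor-gated and 16 in macrophage-gated nuclei, and none was called by edgeR in either direction and either contrast. At an unadjusted p under 0.05 the HFD contrast had 4, 3 and 6 of them in that order and the WL contrast 0, 1 and 3, beside the shares of all genes given above for the clock genes (23.6%, 24.6% and 29.7% on HFD, and 8.07%, 11.1% and 15.1% after WL). DESeq2 called 2, 1 and 3 of them on HFD, beside 7.94%, 9.31% and 13.9% of all genes, and 0, 0 and 1 after WL, beside 0.531%, 1.38% and 3.91%. Without CCH, edgeR called 4, 3 and 6 on HFD, beside 13.0%, 14.0% and 26.5%. The median log2 fold on HFD was -0.64 in adipocyte-gated nuclei (all genes: -0.03), -0.23 in progenitor-gated (all genes: 0.00) and -0.31 in macrophage-gated nuclei (all genes: 0.06). For the 10 core genes these medians were -0.13, -0.23 and -0.21. After WL the medians were -0.46, -0.39 and -0.74 for the core genes and -0.05, -0.22 and -0.13 for the 18 genes around them. Those of all genes were then -0.03, -0.03 and 0.02.

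Several of these partners were more than 2-fold apart between 2 libraries. In adipocyte-gated nuclei 2 were higher and 5 lower of 17 in H with C, beside 34.9% of all genes. The counts were 0 and 5 of 15 in HH with CC (36.2%) and 1 and 2 of 16 in HHC with CCC (16.5%). They were 0 and 0 of 15 in HC with CC (12.4%) and 0 and 1 of 15 in HCH with CCH (18.5%). In macrophage-gated nuclei they were 2 and 2 of 15 in H with C (38.0%) and 1 and 5 of 15 in HH with CC (40.9%). They were 2 and 0 of 13 in HC with CC (21.7%) and 1 and 0 of 15 in HCH with CCH (19.3%). In HHC with CCC they were, with Npas2 besides, 4 and 1 of 15 (21.2%). Of the higher partners there, CCC held 1 UMI of Nfil3, 4 of Bhlhe40 and 5 of Bhlhe41. In macrophage-gated nuclei Npas2 was at 3.13 CPM in C and 33.0 in H (10.5-fold higher), at 10.1 in CC and 43.8 in HC (4.33-fold higher), and at 0 UMIs in CCC against 42.5 CPM in HHC, at least 9.42-fold higher when CCC is set to 3 UMIs. Bhlhe41 was 5.91-fold higher in H than in C, 3.82-fold higher in HH than in CC and 3.78-fold higher in HHC than in CCC there. Chow counts behind these folds were small, with 9 UMIs of Npas2 in C and 11 in CC. Bhlhe41 had 16 UMIs in C, 10 in CC and 5 in CCC. The part of macrophage subtypes in the Npas2 and Bhlhe41 values was not tested. Rora was 3.12-fold lower in H than in C and 7.57-fold lower in HH than in CC there. Adipocyte markers in macrophage-gated nuclei were lower in the same comparisons, at 391 CPM in H and 1247 in C and at 540 in HH and 3558 in CC. Rora stood at 1755 CPM in adipocyte-gated and 188 CPM in macrophage-gated nuclei of C, and the part of adipocyte RNA in its ratios was not tested. In adipocyte-gated nuclei Tef, a D-box factor like Dbp, was 2.02-fold lower in H than in C, 2.52-fold lower in HH than in CC and 2.01-fold lower in HHC than in CCC. Progenitor-gated nuclei had 1 partner higher and 1 lower of 17 past 2-fold in H with C, beside 28.9% of all genes. There were 2 and 1 of 17 in HH with CC (34.7%) and 1 and 1 of 16 in HC with CC (15.4%). HHC with CCC gave 1 and 1 of 17 (15.8%), and HCH with CCH 1 and 0 of 17 (15.2%). In progenitor-gated nuclei Bhlhe41 was 2.99-fold higher in both H and HH against C and CC. Rorb, another nuclear receptor, was at 68.3 CPM in HC from 248 UMIs and at 6.57 in CC from 15 UMIs there (10.4-fold higher), while HHC held 11.4 CPM and CCC 16.4. HC was the highest and CC the lowest of the 9 libraries for Rorb.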

How the data were processed

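The authors made the deposited counts, raw UMI counts per gene and barcode, from 10x 3′ single-nucleus libraries with Cell Ranger 6.1.2 on mm10 (GRCm38), with intronic reads. Barcodes passed with 500 to 3000 detected genes and no more than 40000 UMIs, as in the study's methods, and mitochondrial genes and Malat1 left every total. A nucleus was given a class where at least 3 markers of that class were detected at 3-fold or more above the background of its library (Poisson p of 0.0001 or less) and no other class passed. Nuclei passing for several classes (6021) were left out, which also takes doublets, and 22840 had no class. No doublet caller was run and free RNA was not subtracted. This gate was settled after class shares had been seen, and the clock genes, lists and tests were chosen with earlier results of these data known.

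UMIs were summed per library and class. edgeR 4.0.16 (R 4.3.3) with TMM factors and its filter on low counts fitted 3 diet states, and DESeq2 1.42.0 was the alternative. p-values measure the spread between libraries of pooled mice. The fit was also run on simulated counts with a fixed spread and no differences of age, diet length or sequencing set between libraries. That run does not gauge the spread between the libraries here. Averages of log2 CPM used an offset of 0.5 UMIs, and relations of Arntl exact permutation tests in Python 3.11.15 with scipy 1.17.1. The genes named beyond the core list were partners past the 2-fold limit and the 5 genes most like Dbp and the 5 most like Arntl. Values of 1 partner gene are not reported here. Other gates, filters and scalings, DESeq2, the sequencing set as a term and leaving out each library were tried.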

Additional observations from a re-analysis of the deposited data

Results flagged for a closer look

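Among the 4 HFD libraries, 3 of 30 sets of clock gene levels (10 genes in 3 cell classes) held a library whose gap to the nearest other, as a share of the range, exceeded Dixon's 95% limit. Chance gives such a gap in about 1 of 20 sets. Clock in adipocyte-gated nuclei was at 244 CPM in H, with the next library at 187 and the lowest at 178. Clock in macrophage-gated nuclei was at 282 CPM in CCH, with the next library at 211 and the lowest at 208. Arntl in macrophage-gated nuclei was at 74.9 CPM in H, with the next library at 44.3 and the lowest at 39.4. What set these libraries apart was not tested.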

How the results depend on the processing

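No paired analysis was possible because each group has 1 library, and its single replicate number names no animal, litter or day shared with another group. Alternatives for the edgeR gates and limits, and all for the overlap of libraries, were chosen after seeing the data. Of the log2 ratios between 2 libraries under other gates, limits and scalings, 413 lay within the interval of the reported ratio, 35 had moved out of it and 1 was reversed. Counted by sign, 420 of the same ratios kept it and 29 had the other sign (12 with TMM factors, 10 without an upper limit on genes or UMIs, 7 under the stricter gate). The reported interval held 0 in all of these 29 but Per3 in adipocyte-gated nuclei of H with C, from 0.50 to -0.14 without that upper limit. Without that limit, the clock genes past 2-fold went from 4 to 2 (adipocyte-gated, HHC with CCC), 1 to 2 (progenitor-gated, HC with CC), 1 to 0 (progenitor-gated, HCH with CCH) and 2 to 4 (macrophage-gated, both HC with CC and HHC with CCC). The stricter gate gave 2 in progenitor-gated nuclei of HC with CC and 1 in HHC with CCC. The cause of these moves was not tested.

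HFD calls went from 0 by edgeR to 2 by DESeq2 in adipocyte-gated and 2 in macrophage-gated nuclei, and to 1 (Cry1) without the filter on low counts in adipocyte-gated nuclei. WL calls by DESeq2 were 1 in progenitor-gated and 1 in macrophage-gated nuclei. Leaving out each library gave 0 to 3 HFD calls in adipocyte-gated, 0 to 1 in progenitor-gated and 0 to 2 in macrophage-gated nuclei, the highest in each without CCH, and 0 WL calls throughout. Clock genes with no overlap between HFD and chow libraries went to 4 (adipocyte-gated, beside 20.6% of all genes) and 1 (progenitor-gated, beside 17.8%) without the upper limit and to 1 (macrophage-gated, beside 20.1%) under the stricter gate. Between WL and chow libraries, adipocyte-gated nuclei had 5 without the upper limit, beside 22.6% of all genes, and 5 with TMM factors, beside 26.2%. Leaving out each library gave 2 to 4, 0 to 3 and 2 to 4 such genes for HFD and 3 to 6, 4 to 5 and 5 to 7 for WL in adipocyte-, progenitor- and macrophage-gated nuclei. Beside them stood 16.5 to 35.8%, 19 to 36.5% and 22.8 to 45.9% of all genes for HFD and 31.2 to 54.4%, 35.1 to 52.7% and 43.4 to 56.1% for WL, and fewer libraries overlap less by construction. No relation of Arntl passed in any alternative. Depth limits Nr1d1, Dbp and Cry1 most, with 6, 8 and 13 UMIs in their least counted adipocyte-gated library.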
